A study of Mus musculus with 11 samples.

Results

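A group of 95 of the 1096 mature miRNAs in the small RNA-seq tables of mouse spermatogonial progenitor cells (SPCs) carries a name without a 5p or 3p arm label. They were chosen by name only, as entries ending in neither -5p nor -3p, and of the 103 such entries 8 were left out, namely miR-451a, miR-484 and the members of the miR-466 and miR-669 families. The choice was made with the values of the same 2 libraries in view, so the differences between the libraries are given as a description, without a test. The control cells carried the empty lentiviral shRNA vector (shVector) and the knockdown cells a vector with an shRNA against Mov10. Both were cultures of Thy1-positive germ cells from testes of pups, labelled postnatal day 6 and strain C57BL/6, kept on STO feeder cells, which are mouse fibroblasts, and the study's methods name another strain background for the mice, B6;129S-Gt(Rosa)26Sor/J. Each group is represented by 1 library, and the methods speak of triplicate samples without saying whether they were pooled. A small RNA library does not measure Mov10 mRNA. Neither the variation between cultures nor the depletion of Mov10 could therefore be assessed from these libraries. The study reports lower Mov10 mRNA and protein in SPCs that received its Mov10 shRNAs.

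A miRNA is cut from a hairpin whose stem has a 5′ arm and a 3′ arm, and an arm label is added to the name when mature forms from both arms are annotated. An entry without a label is in general a hairpin for which a single mature form was annotated, often from few reads, and databases of miRNAs hold among them copies of interspersed repeats and pieces of tRNAs, small nucleolar RNAs (snoRNAs) and rRNAs, as well as ordinary members of miRNA families. Mature miRNAs guide Argonaute proteins to target RNAs mainly through the seed, bases 2 to 8. MOV10 is an RNA helicase that associates with Argonaute proteins, and the comparison asks how these entries differed between control and Mov10 knockdown SPCs.

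Mature sequences of the entries the results turn on, taken from RefSeq (GRCm38.p6) and written 5′ to 3′ with the seed in capitals, fall into several kinds. The first 6 are shown because their sequence, with at most 1 mismatch, occurs at 556 to 116612 places in the genome.
miR-1195: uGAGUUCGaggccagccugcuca
miR-3470b: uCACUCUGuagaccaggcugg
miR-3471: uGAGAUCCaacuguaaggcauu
miR-3472: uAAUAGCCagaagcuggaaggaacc
miR-3473a: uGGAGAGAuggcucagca
miR-3473b: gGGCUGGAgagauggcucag

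The next 5 are shown because they resemble an abundant arm-labelled miRNA, and the last of them lies opposite Mir142hg.
let-7j: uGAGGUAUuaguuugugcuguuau
miR-101c: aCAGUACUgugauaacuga
miR-378c: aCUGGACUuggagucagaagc
miR-378d: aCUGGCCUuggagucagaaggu
miR-142b: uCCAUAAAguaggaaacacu

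A further 7 are shown because they were far higher in the knockdown library. Among these, miR-3535 and miR-5121 lie in snoRNA genes, miR-6538 matches 28S rRNA, and the other 4 are rich in G and C.
miR-3535: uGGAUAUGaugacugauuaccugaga
miR-5121: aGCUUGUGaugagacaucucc
miR-6538: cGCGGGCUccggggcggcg
miR-5126: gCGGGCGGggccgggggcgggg
miR-2137: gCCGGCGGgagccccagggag
miR-6236: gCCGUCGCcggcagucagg
miR-6240: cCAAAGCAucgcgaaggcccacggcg

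The last pair is shown because both were lower in the knockdown library although each has a single place in the genome.
miR-8114: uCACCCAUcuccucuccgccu
miR-8112: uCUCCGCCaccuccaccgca

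The control library held 9628835 reads on miRNAs and the knockdown library 2794593. The deposited TPM of a miRNA is its reads per 1000000 of a library total (10518277 and 3194363 reads, respectively), without a correction for length, so that each control read added 0.0951 TPM and each knockdown read 0.313 TPM, and the detection floor of 3 reads stood at 0.285 and 0.939 TPM. Fold changes were computed on a log2 scale, knockdown over control, after 0.1 was added to every TPM, and are therefore too small for entries with low TPM. The 95% intervals beside them are exact Clopper-Pearson intervals of the share of an entry's reads found in the knockdown library, turned into a fold change, and cover counting error only. An entry was called lowered or raised when its level differed by over 1.5-fold and exceeded 1.5 TPM in the higher library.

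Of the 95 entries, 90 had reads in the control library and 73 in the knockdown library. The distribution was steep, with 1232 to 24919 control reads for the 10 most abundant entries, 137 to 842 for the next 16, 10 to 95 for the next 22, 1 to 9 for 42 entries and 0 for 5. The 22 entries without knockdown reads had at most 6 control reads and the 5 without control reads had at most 2 knockdown reads, so that a difference for these was not detectable at this depth. Among the entries with at least 20 control reads, 0 were without knockdown reads.

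The 95 entries together held 55161 control reads, which is 0.573% of all reads on miRNAs (95% Wilson interval 0.568 to 0.578%), and 63922 knockdown reads, which is 2.29% (2.27 to 2.30%). Their summed TPM was 5244 in control SPCs and 20011 in knockdown SPCs, a log2 fold change of 1.93. miR-5099 alone accounted for 45.2% of these reads in control SPCs and 60.2% in knockdown SPCs, with 24919 and 38465 reads, and without it the summed fold change was 1.47, an alternative added after the values were seen. Of the 461 miRNAs with over 45 reads in the higher library, 10 (2.17%) had more reads in the knockdown than in the control library. All 10 were among the 95 entries, and went from 30266 to 56363 reads. The remaining 85 entries had 24895 control and 7559 knockdown reads, and their summed TPM was 2367 in control SPCs and 2366 in knockdown SPCs. Those 10 were set apart by the reads themselves, so this division is arithmetic and shows nothing further about the remaining entries.

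**Figure D1:**
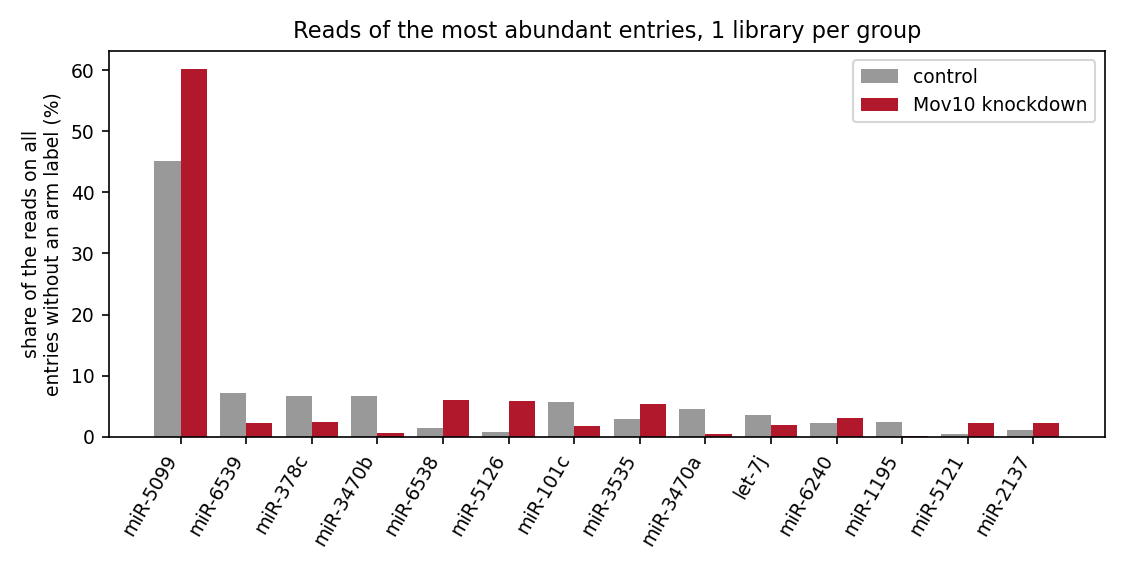
Share of all reads on entries without an arm label (vertical axis, percent) for the 14 most abundant of them, in the control library (grey bars) and the Mov10 knockdown library (red bars), 1 library per group. miR-5099 held 45.2% and 60.2%, and the share of any other entry depends on the reads of miR-5099, so that miR-6539 (379 and 456 TPM) has the smaller bar in the knockdown library although its TPM was higher there.

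The fold changes were widely spread. Above 1.5 TPM in the higher library were 48 of the 95 entries, and their median log2 fold change was 0.51, with quartiles at -0.04 and 1.41 and a range from -2.70 to 4.96. Lowered were 10 of the 48 (20.8%) and raised 21 (43.8%), beside 41.5% lowered and 15.8% raised among the 607 miRNAs above this minimum. Of the raised entries, 6 (miR-5112, miR-6238, miR-3963, miR-5122, miR-5123 and miR-5119) passed the minimum through the knockdown library only, where 5 reads were enough. With 1.5 TPM required in both libraries, 9 of 39 entries were lowered and 15 raised, beside 194 and 75 of 518 miRNAs. The 554 arm-labelled miRNAs above the minimum in the higher library had a median of -0.42, with 43.1% lowered and 13.4% raised. The counting interval lay wholly below 0 for 9 of the 10 lowered entries and wholly above 0 for 16 of the 21 raised ones. Among all miRNAs above the minimum the same held for 199 of 252 lowered and 68 of 96 raised. Of the 11 raised entries outside the 10 with more knockdown reads, 6 had an interval above 0. By far the most reads of these were those of let-7j.

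The order of these numbers depends on how the libraries are scaled. The number above 1.5 TPM changes with the scaling as well. With both libraries divided by the control library total, which compares the reads directly, 30 of 40 entries were lowered and 10 raised, and their median was -1.28. The median of all miRNAs then moved from -0.37 to -2.07, with 561 of 581 lowered and the same 10 raised. With DESeq2 size factors the median of all miRNAs moved to -0.04 (173 lowered, 150 raised of 591), and with TMM factors to -0.11 (201 lowered, 145 raised of 616). Of the entries without an arm label, 9 were lowered with either, and 28 of 48 and 29 of 52 were raised.

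At a given control level the spread was wider than that of arm-labelled miRNAs only from 10 TPM upwards. Between 10 and 100 TPM in the control, the interquartile range of the log2 fold change was 4.03 for the 16 entries without an arm label and 1.18 for the 157 arm-labelled miRNAs. At 100 TPM and above the interquartile range was 2.88 for 10 entries and 1.00 for 197 arm-labelled miRNAs. Below 10 TPM the order was the reverse, with 0.772 for 22 entries and 1.57 for 200 arm-labelled miRNAs. Much of the width came from the 10 entries with more knockdown reads, whose values ran from 2.35 to 4.96. They were picked by their reads, so leaving them out narrows the range by construction. The narrower ranges that follow therefore show nothing further about the remaining entries. Without them the interquartile range was 1.62 for 10 entries between 10 and 100 TPM, and 1.69 for 7 entries at 100 TPM and above. Over all entries above 1.5 TPM it was then 1.24 for 38 entries, beside 1.22 for the 554 arm-labelled miRNAs.

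The 12 entries with the most control reads did not move together. After miR-5099, at 2369 TPM in control SPCs and 12042 TPM in knockdown SPCs (log2 fold change 2.35, interval 2.32 to 2.37), came miR-6539, with 3990 and 1456 reads. The level of miR-6539 was 379 TPM in control SPCs and 456 TPM in knockdown SPCs, a log2 fold change of 0.26 (0.18 to 0.35). miR-378c, from the family of a miRNA encoded in the metabolic coactivator gene Ppargc1b, had 3694 and 1573 reads, or 351 and 492 TPM (0.49, 0.40 to 0.57). With the deposited TPM neither miR-6539 nor miR-378c reached 1.5-fold. With 1 common total both turned negative, to -1.45 and -1.23, whereas miR-378c passed 1.5-fold with DESeq2 size factors (0.77) and TMM (0.71).

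miR-3470b had 3668 reads in control SPCs and 425 in knockdown SPCs, and its level went from 349 to 133 TPM (log2 fold change -1.39, interval -1.54 to -1.24). miR-3470a, which carries the same number, had 2501 and 324 reads, or 238 and 101 TPM (-1.23, -1.40 to -1.06). Both were lowered, and remained negative under each of the scalings used. miR-101c, between them in abundance, had 3147 and 1150 reads, or 299 and 360 TPM (0.27, 0.17 to 0.36), and like miR-6539 was negative (-1.45) with 1 common total only.

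let-7j had 1949 and 1233 reads, or 185 and 386 TPM, and was raised, with a log2 fold change of 1.06 (0.95 to 1.16) that turned to -0.66 with 1 common total. miR-3535 had 1626 and 3405 reads, or 155 and 1066 TPM (2.78, 2.70 to 2.87). miR-6240 had 1232 and 1912 reads, or 117 and 599 TPM (2.35, 2.25 to 2.46). These last 2 had more reads in the much smaller knockdown library and were positive with every scaling. The next, miR-6412, had 842 and 255 reads and levels of 80.1 and 79.8 TPM (-0.0040, -0.21 to 0.20). Its value was 0.28 with DESeq2 size factors and -1.72 with 1 common total. The remaining entries of the 12, miR-1195 and miR-6538, lay at opposite ends of the range and are described with the repeats and the structural RNA matches.

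The lowest value among the 48 entries above 1.5 TPM was that of miR-1195. Its annotated locus is on chromosome 17 (GRCm38, minus strand, 70860558 to 70860580), opposite the gene Gm9320 and outside genes of its own strand. It had 1288 control and 60 knockdown reads, a read ratio of 0.0466. Its level went from 122 to 18.8 TPM (log2 fold change -2.70, interval -3.09 to -2.33), and the value was -4.40 with 1 common total. Among the 10 entries with the most control reads it was the lowest by a margin wider than the counting intervals, the next being miR-3470b at -1.39.

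Of the 31 entries with at least 50 control reads, 11 had a log2 fold change below 0. A value below 0 was not particular to these entries, as the median of all 607 miRNAs above 1.5 TPM was -0.37. miR-3472 is annotated in an intron of Rtl4, a gene derived from a retrotransposon, on chromosome X from 145039344 to 145039414. It had 663 and 74 reads, or 63.0 and 23.2 TPM (-1.44, -1.81 to -1.09). miR-3471, annotated on chromosome 4 from 10845500 to 10845630 outside other genes, had 232 and 22 reads, or 22.1 and 6.89 TPM (-1.66, -2.36 to -1.04). Together with miR-3470b and miR-3470a these 2 lay between -1.66 and -1.23, and the 4 intervals overlapped pairwise.

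miR-8114 and miR-8112 were lowered as well, and their hairpins overlap annotated exons. The miR-8114 hairpin is on chromosome 1 from 153899926 to 153900036 in an exon of Glul, which encodes glutamine synthetase, and had 140 and 19 reads, or 13.3 and 5.95 TPM (-1.15, -1.91 to -0.46). The miR-8112 hairpin is on chromosome 6 from 71271671 to 71271801 in an exon of Krcc1, and had 53 and 6 reads, or 5.04 and 1.88 TPM (-1.38, -2.77 to -0.20). With so few knockdown reads the size of either fall is known only to within the wide intervals given. The same holds for the 2 lowered entries that the rule for named entries did not include and that were added after their values were seen, miR-5128 with 26 reads and 1 read (-2.64, -4.63 to -0.36) and miR-1194 with 48 and 9 reads (-0.68, -1.83 to 0.34), the only lowered entry whose interval reached above 0.

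**Figure D2:**
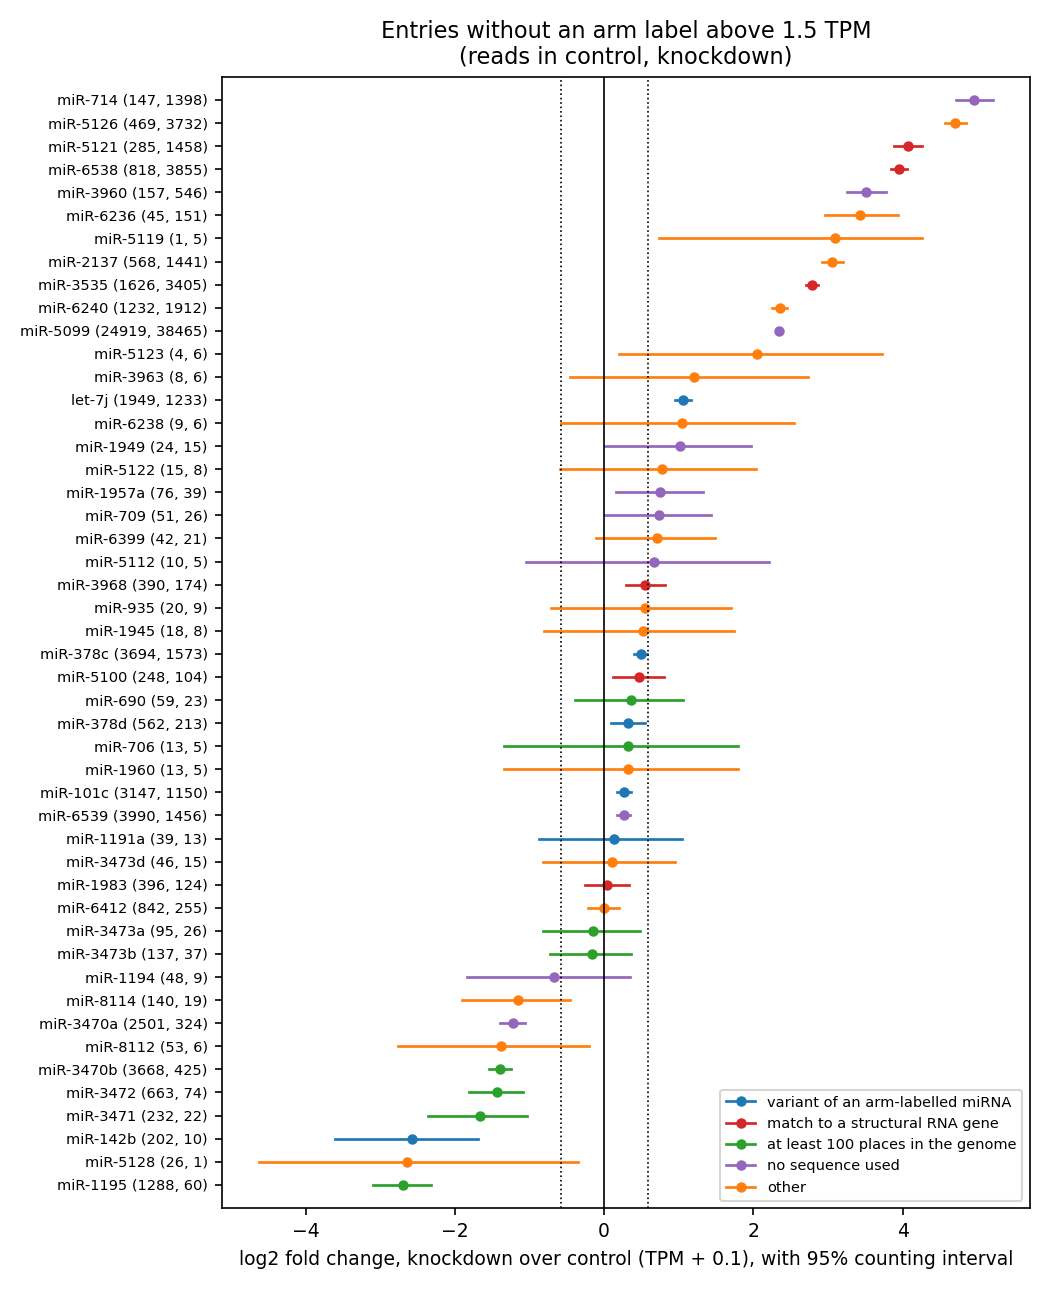
Log2 fold change of TPM + 0.1, knockdown over control (horizontal axis), for the 48 entries without an arm label above 1.5 TPM, ordered by value and coloured by kind of sequence, with 95% counting intervals as bars, dotted lines at 1.5-fold, and reads in the control and knockdown library in parentheses. The values run from -2.70 for miR-1195 to 4.96 for miR-714, and the intervals widen where reads are few, as for miR-5128 (26 and 1).

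A mature sequence was available for 76 of the 95 entries (80%) and for 827 of the 993 arm-labelled miRNAs (83.3%). Entries without an arm label were, like the others, 18 to 26 nt long with a median of 22 nt, and their median GC content was 54.5% (33.3 to 100%), beside 50% (22.7 to 85.7%). Under 20 nt long were 8 of the 76 and 5 of the 827. Sequences were compared with the genome and with 5022 annotated rRNA, tRNA, snoRNA and other structural RNA genes, allowing 1 mismatch. Of the 48 entries above 1.5 TPM only 38 had a sequence (79.2%), which is under the 80% set for relating a feature to the fold change, so that check is void and the values of single entries are given instead.

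Sequences present at 100 or more places in the genome made up 11 of the 76 entries (14.5%) and 3 of the 827 arm-labelled miRNAs (0.363%). The mature sequence of miR-3470b matched 116612 places, that of miR-3473b 80274, that of miR-706 76160, that of miR-3473a 35546, that of miR-3472 32464, that of miR-3471 11756, that of miR-690 1124 and that of miR-1195 556. The log2 fold changes of miR-1195, miR-3470b, miR-3471 and miR-3472 are given above. Those of the other 4 ran from -0.17 for miR-3473b (137 and 37 reads, 13.02 and 11.6 TPM) and -0.15 for miR-3473a (95 and 26 reads, 9.03 and 8.14 TPM) to 0.32 for miR-706 and 0.35 for miR-690. The values of miR-3473a and miR-3473b turned positive with DESeq2 and TMM factors.

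All 11 lay wholly in repeat-masked sequence. The mature locus was at least 95% masked in 16 of the 76 entries (21.1%) and in 17 of the 827 arm-labelled miRNAs (2.06%). The exact sequence was found at 42847 places for miR-3470b but at 2 for miR-1195.

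**Figure D3:**
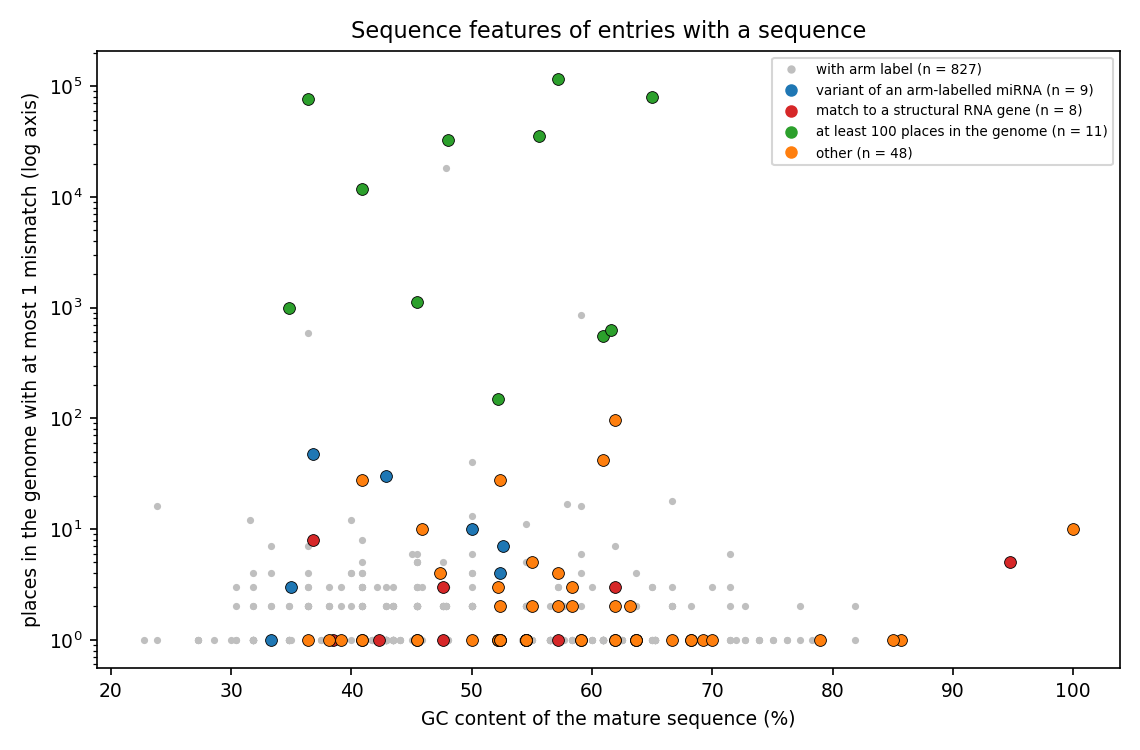
GC content of the mature sequence (horizontal axis, percent) and number of places in the genome with at most 1 mismatch (vertical, log axis) for the 76 entries without an arm label that have a sequence, coloured by kind, and for 827 arm-labelled miRNAs (grey). Entries without an arm label reach 116612 places (miR-3470b) and 100% GC (miR-5126).

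Matches to structural RNA genes other than those annotated as miscellaneous RNA were found for 8 of the 76 entries (10.5%) and 16 of the 827 arm-labelled miRNAs (1.93%). Of these 16 arm-labelled miRNAs, 13 were above 1.5 TPM, with 5 lowered, 2 raised and a median log2 fold change of -0.27. The median of all 554 arm-labelled miRNAs above this minimum was -0.42. miR-3535 lies within the snoRNA gene Gm24148, and its hairpin on chromosome 1 (86351981 to 86352127) overlaps an annotated exon of the nucleolin gene Ncl. miR-5121 lies within Snord33, a C/D box snoRNA. Its hairpin on chromosome 7 (45126918 to 45126991) overlaps annotated exons of Gm45713 and of the ribosomal protein gene Rpl13a. Overlap with an exon of any annotated transcript was counted, which need not be an exon of the main transcript. miR-5121 had 285 and 1458 reads, or 27.1 and 456 TPM (log2 fold change 4.07). miR-6538, annotated in an intron of Rnf144a on chromosome 12 from 26414901 to 26415010, matched the 28S rRNA gene Rn28s1 exactly and had 818 and 3855 reads, or 77.8 and 1207 TPM (3.95).

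Another 3 entries are related to tRNAs, and were within 1.5-fold with the deposited TPM. miR-1983 lies in the stretch just behind the tRNA gene n-TItat14 and had 396 and 124 reads, or 37.6 and 38.8 TPM (0.04, -0.26 to 0.34). miR-3968 matched the tRNA gene n-TLcag1 and miR-5100 the tRNA gene n-TTagt5, each with 1 mismatch, and their log2 fold changes were 0.55 (390 and 174 reads) and 0.46 (248 and 104 reads). The authors filtered rRNA reads before mapping, and miR-6538 was counted nonetheless. The part that RNA quality or library preparation had in these values was not tested.

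A GC content of 75% or more was found in 5 of the 76 entries and 11 of the 827 arm-labelled miRNAs. The only one of these 11 above 1.5 TPM, miR-615-5p, had a log2 fold change of -0.46. miR-5126, whose 22 nt are 100% G and C, had 469 and 3732 reads, or 44.6 and 1168 TPM (4.71). miR-6538, at 94.7% GC, has been described above, and miR-2137, at 85.7%, had 568 and 1441 reads, or 54.0 and 451 TPM (3.06). miR-6236, at 78.9%, had 45 and 151 reads, or 4.28 and 47.3 TPM (3.44). The fifth, miR-5122, at 85.0%, had 15 and 8 reads (0.77, -0.59 to 2.03) and was within counting error. Of the remaining entries with more knockdown reads, miR-714 had 147 and 1398 reads, or 13.98 and 438 TPM (4.96), and miR-3960 had 157 and 546 reads, or 14.9 and 171 TPM (3.51).

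Some entries resemble an abundant arm-labelled miRNA, and each is set beside it here. let-7j differs from let-7i-5p by the single substitution G8U over 22 nt, counted from base 1 at the 5′ end of let-7i-5p, so that the difference falls in the last base of the seed. let-7i-5p belongs to the let-7 family, which restrains growth and pluripotency genes, and had 50857 and 29682 reads, a log2 fold change of 0.94 (0.92 to 0.96) beside 1.06 for let-7j. The reads of let-7j were 3.83% of those of let-7i-5p in control SPCs and 4.15% in knockdown SPCs. let-7k, which has the seed of 9 arm-labelled miRNAs of the let-7 family, had 2 reads in control SPCs and 1 in knockdown SPCs.

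miR-101c consists of bases 2 to 20 of miR-101a-3p without a mismatch, and the same sequence is found at 9 places in the genome. miR-101a-3p had 26412 and 7953 reads, a log2 fold change of -0.01 (-0.05 to 0.02), against 0.27 (0.17 to 0.36) for miR-101c, so that these intervals did not overlap. The arm-labelled miR-101b-3p had 2943 and 1478 reads (0.73, 0.63 to 0.82), so that miR-101c lay between it and miR-101a-3p. The reads of miR-101c were 11.9% of those of miR-101a-3p in control SPCs and 14.5% in knockdown SPCs. A read lacking the first base of miR-101a-3p could match either entry, and how the authors assigned such reads is not stated.

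miR-378c and miR-378d differ from each other in the seed and share a stretch of 14 nt. miR-378d had 562 and 213 reads, or 53.4 and 66.7 TPM (0.32, 0.09 to 0.55). The arm-labelled miR-378a-3p had 14628 and 5765 reads (0.38, 0.33 to 0.42), a value that lay between those of miR-378d and miR-378c (0.49). With 1 common total, miR-378c and miR-378d turned negative (-1.23 and -1.40), and with DESeq2 size factors miR-378d was at 0.60, just over 1.5-fold. miR-378b, which shares 19 nt with miR-378c, had 2 reads in each library.

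miR-142b was lowered. Its hairpin lies on chromosome 11 from 87756841 to 87756955 on the strand opposite Mir142hg, the host of the blood cell miRNA miR-142. Its mature sequence differs from miR-142a-5p by A11G and G14A over 18 nt, counted from base 1 at the 5′ end of miR-142a-5p. The sequence of miR-142b begins before that base, so the seeds differ. miR-142b had 202 reads in control SPCs and 10 in knockdown SPCs, or 19.2 and 3.13 TPM (-2.58, -3.61 to -1.69). miR-142a-5p had 1663 and 92 reads (-2.45, -2.77 to -2.15), and miR-142a-3p had 121 and 5 reads (-2.80). The reads of miR-142b were 12.1% of those of miR-142a-5p in control SPCs and 10.9% in knockdown SPCs, and the value of miR-142b was -4.20 with 1 common total.

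**Figure D4:**
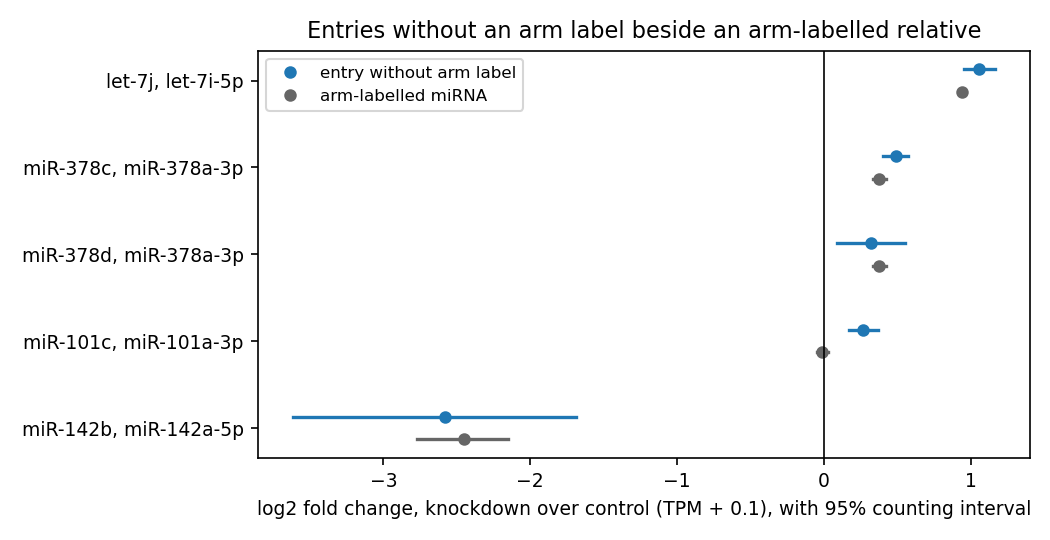
Log2 fold change of TPM + 0.1, knockdown over control (horizontal axis), with 95% counting intervals as bars, for 5 entries without an arm label (blue) and the arm-labelled miRNA each resembles (grey). The values are close within the let-7j, miR-378 and miR-142 pairs (1.06 and 0.94, 0.49 and 0.38, 0.32 and 0.38, -2.58 and -2.45), and apart for miR-101c and miR-101a-3p (0.27 and -0.01).

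Markers of other cells moved beside this. All 5 miRNAs listed for blood cells, which include miR-142a-5p and miR-142a-3p, had reads in both libraries, and their summed level was 175.7 TPM in control SPCs and 34.7 TPM in knockdown SPCs (log2 fold change -2.33), with 0 of 5 higher in the knockdown. The 2 miR-142a forms make up most of this sum, and the other 3, miR-150-5p, miR-223-3p and miR-451a, summed to 6.08 and 4.38 TPM (-0.46). Of these, miR-451a had 11 reads in control SPCs and 1 in knockdown SPCs, near the floor. miR-155, left off this list though also known from blood cells, did not fall alike. miR-155-5p was at 100.2 and 95.5 TPM (-0.07), and miR-155-3p at 1.33 and 3.76 TPM (1.43). Of 7 miRNAs listed for fibroblasts, such as the STO feeder cells, 5 were higher in the knockdown, with a summed level of 27617 and 32232 TPM (0.22). The 8 miRNAs listed for germ and pluripotent stem cells were all lower, with 153614 and 110913 TPM (-0.47). miR-182-5p made up most of this sum (142065 and 103395 TPM), and the median of all miRNAs above 1.5 TPM was -0.37. Related forms left off this list went both ways, such as miR-291a-5p (-1.38) and miR-292b-5p (0.07). The part that the cell makeup of the cultures had in the values of miR-142b or of any other entry was not tested, and fewer cells of a type and less RNA per cell cannot be told apart here.

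The miR-3473 entries differed little from each other in fold change where they had reads. miR-3473b and miR-3473a share 16 nt, and miR-3473b and miR-3473e share 18 nt and the seed. miR-3473d had 46 and 15 reads, or 4.37 and 4.70 TPM (0.10, turning to -1.55 with 1 common total), miR-3473g had 5 reads in control SPCs and 0 in knockdown SPCs, and miR-3473e had 2 and 0. The last 2 were at or near the floor of 3 reads, and no fold is given for them. Among other shared seeds, miR-6240 has the seed of miR-330-3p, and miR-3473d that of miR-674-5p.

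By position, 28 of the 76 placed entries (36.8%) lay in an intron of another gene on the same strand, 16 (21.1%) in an exon and 32 (42.1%) outside other genes, beside 47.8%, 25.4% and 26.8% of the 827 arm-labelled miRNAs. An entry was counted in an exon when its hairpin overlapped an exon of any annotated transcript on its strand. The lowered entries with an annotated position were found in each of these settings. Of these, miR-3472 and miR-5128 are in introns, and miR-8112 and miR-8114 in exons. miR-1195, miR-142b, miR-3470b and miR-3471 are outside other genes. For miR-1195, miR-3470b, miR-3471 and miR-3472 the annotated position does not tell where their reads came from. Their exact sequences occur at from 2 places in the genome (miR-1195) to 42847 (miR-3470b), and at 556 to 116612 places with at most 1 mismatch. Among the entries left out by name, miR-466g had 700 and 34 reads (-2.63) and miR-484, which comes from a transcript that needs no Drosha cleavage, had 3070 and 631 reads (-0.56).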

How the data were processed

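Small RNAs of SPCs were sequenced as 1 control and 1 Mov10 knockdown library. According to the methods, the authors filtered rRNA reads, trimmed adaptors with Fastx and mapped reads without mismatch to miRBase with CLC Genomics Workbench, and the submitters' processing notes also name Cufflinks 2.1.1. For every mature miRNA the deposited files hold raw read counts. Beside them stand TPM computed by the authors as reads per 1000000 of a library total, with no length correction, and used as deposited. How reads matching several entries were assigned is not stated. The RNA-seq and CLIP-seq samples were not analysed here.

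The members and lists were chosen with earlier results of these data known. Entries named in the text are the 12 with the most control reads, the 12 with the largest fall among those with at least 50 control reads, those with more reads in the knockdown and over 45 reads in the higher library, and those sharing a number or seed with them, which gave 31. Values of miR-690, miR-706, miR-1194, miR-1983, miR-3968, miR-5100, miR-5122 and miR-5128 were added after they were seen. The kinds of sequence were defined after the values were seen. An entry counted as resembling an arm-labelled miRNA when it had the same number or at most 2 mismatches over at least 16 nt. Sequences came from RefSeq (GRCm38.p6), host genes from GENCODE vM21, and the bases just behind a tRNA gene (20 nt) were searched too. Blood, fibroblast and germ cell miRNAs were listed from general knowledge. The intervals were checked on simulated reads. Python 3.11.15, scipy 1.17.1, statsmodels 0.14.6, edgeR 4.0.16 and DESeq2 1.42.0 were used, the last 2 for scaling factors only. Alternatives were other minimum levels, pseudocounts, scalings and sets of entries. The reads carry no molecular identifiers, so intervals cover counting error only.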

Additional observations from a re-analysis of the deposited data

How the results depend on the processing

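No paired analysis was possible because there was only 1 library on either side of the comparison, and none could be left out. Without a minimum level, 35 entries were lowered and 32 raised with a median of 0.10, beside 561 and 186 of all 1096 miRNAs with a median of -0.64. With a minimum of 10 TPM, 7 were lowered and 12 raised, beside 157 and 53 of 393. The log2 fold change of the summed TPM was 2.00 with scaling by miRNA reads, 2.02 by arm-labelled reads, 2.21 with DESeq2 size factors and 2.15 with TMM, 1.85 with the left-out names, 1.81 without structural RNA matches, 1.47 without miR-5099 (an alternative chosen after seeing the data) and -0.00029 without the 10 entries with more knockdown reads, when 11 were raised. With DESeq2 size factors the median was 0.78. With 1 common total, which by construction removes the correction for depth, 30 of 40 were lowered and 10 raised. The median was then -1.28, the summed change 0.21, 20 of the 31 named entries were below 0 in place of 13, and let-7j turned to -0.66. Under the other alternatives the number lowered was 9 to 13 and the number raised 15 to 29. The knockdown library is the shallower, so levels under 0.939 TPM in it could not be told from 0 reads.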
